A study of Mus musculus with 6 samples.

Results

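The cartilage collagen genes are the 7 genes Col2a1, Col9a1, Col9a2, Col9a3, Col10a1, Col11a1 and Col11a2, chosen by name as the collagens that cartilage is known for, out of the 30406 genes listed for every library. All 7 were measured by single-nucleus RNA-seq in C57BL6 mice, in uninjured tibial periosteum and in the periosteum with hematoma and callus after an open, non-stabilized tibial fracture. There were 2 uninjured libraries, 2 libraries at day 3, 1 at day 5 and 1 at day 7. Each library pooled tibias of several adult mice, so that a library and not a mouse is the unit, and days 5 and 7 had no replicate. Nuclei were sorted as Sytox-AAD+ events, and cell types were not selected.

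Cartilage gets its tensile strength from thin, mixed fibrils. Type II collagen makes up most of each fibril, type XI collagen lies in its core and limits its width, and type IX collagen is attached to its surface and links it to the other matrix. Type X collagen forms no such fibril and is known as the product of hypertrophic chondrocytes, the last stage before cartilage is replaced by bone in a healing fracture.

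The deposited matrices hold counts of UMIs, each standing for 1 captured RNA molecule. The uninjured matrices summed to 1499281 and 6570301 UMIs and the day 3 matrices to 2516184 and 29796296, while day 5 gave 10411092 and day 7 gave 4500767. After limits on genes and on mitochondrial and ribosomal UMIs, and without myogenic nuclei, 6118 nuclei were retained: 465 and 895 uninjured, 369 and 1216 of day 3, and 2077 and 1096 of days 5 and 7. No pair of libraries shared more than 7 barcodes, and no pair shared more than 2 after the limits. Populations were named from marker genes that held none of the 7 collagens, and "-like" marks a name given this way. Levels (CPM) are the UMIs of a gene over all UMIs of the summed nuclei, scaled to 1000000. Intervals are 95% exact Poisson intervals for levels and exact Clopper-Pearson intervals for shares, and they cover counting error only.

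The chondrocyte-like cluster held 420 nuclei, with 164 at day 5 and 241 at day 7. Of the chondrocyte markers used for the name, 6 were detected in it and 3 were among its 10 leading genes. Acan, which encodes the main proteoglycan of cartilage, stood at 2332 CPM at day 5 and 2122 CPM at day 7 in these nuclei, against 369.9 and 359.9 CPM in IIFC-like nuclei. Before day 5 the name was given to 2 and 5 uninjured nuclei and to 2 and 6 nuclei of day 3. Of the 7 uninjured ones, none held more than 2 UMIs of any cartilage collagen gene. A nucleus of the first uninjured library, with 703 UMIs in all, held 6 of Acan and 2 of Hapln1, a link protein gene of cartilage. With so few nuclei and UMIs, the name carries little weight there.

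The first question was when the genes appear in the stromal nuclei (SSPC, fibroblast, IIFC, osteoblast, chondrocyte and tendon classes, summed per library together with 3 unnamed clusters nearest to the IIFC or fibroblast class). The named classes gave 85 of the 125 stromal nuclei of the first uninjured library and 262 of the 388 of the second. Col2a1, the type II chain, stood at 13.2 and 4.18 CPM before injury and at 0 and 24.1 CPM on day 3, then at 663 CPM on day 5 and 1547 CPM on day 7. In the first day 3 library the count of 0 allows up to 8.14 CPM. The 2 latest libraries lay far above all 4 earlier ones, and the uninjured and day 3 libraries overlapped. In summed nuclei, fewer cells of a type and less RNA per cell cannot be told apart.

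The 3 type IX genes encode the chains of the molecule on the fibril surface. Col9a1 was read at 0 and 0.597 CPM before injury, 0 and 9.75 CPM on day 3, 266 CPM on day 5 and 637 CPM on day 7. Col9a3 followed with 0 and 1.19 CPM uninjured, 2.21 and 18.5 CPM at day 3, 149.5 CPM at day 5 and 287 CPM at day 7. Both were thus close to the limit of detection in 3 of the 4 early libraries and clearly present in the second day 3 library. Col9a2 had no UMI in the stromal nuclei of either uninjured library, 0 and 2.05 CPM at day 3, 69.4 CPM at day 5 and 139.9 CPM at day 7.

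Both type XI genes had more stromal UMIs before injury than the other genes, with gene length not taken into account. Col11a1 was already at 101 and 217 CPM before injury, and was at 316 and 578 CPM on day 3, 3756 CPM on day 5 and 4286 CPM on day 7. Its day 3 libraries both lay above both uninjured ones, on 143 and 1126 UMIs; the same order for Col9a3 rests on 1 UMI in the first day 3 library. Col11a2 stood at 26.4 and 21.5 CPM uninjured, 8.83 and 36.9 CPM at day 3, 202 CPM at day 5 and 328 CPM at day 7, and its day 3 libraries lay on either side of the uninjured ones. Col10a1, the type X gene, had 0 and 1.19 CPM uninjured, 0 and 3.08 CPM at day 3, 28.1 CPM at day 5 and 67.9 CPM at day 7.

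**Figure D1:**
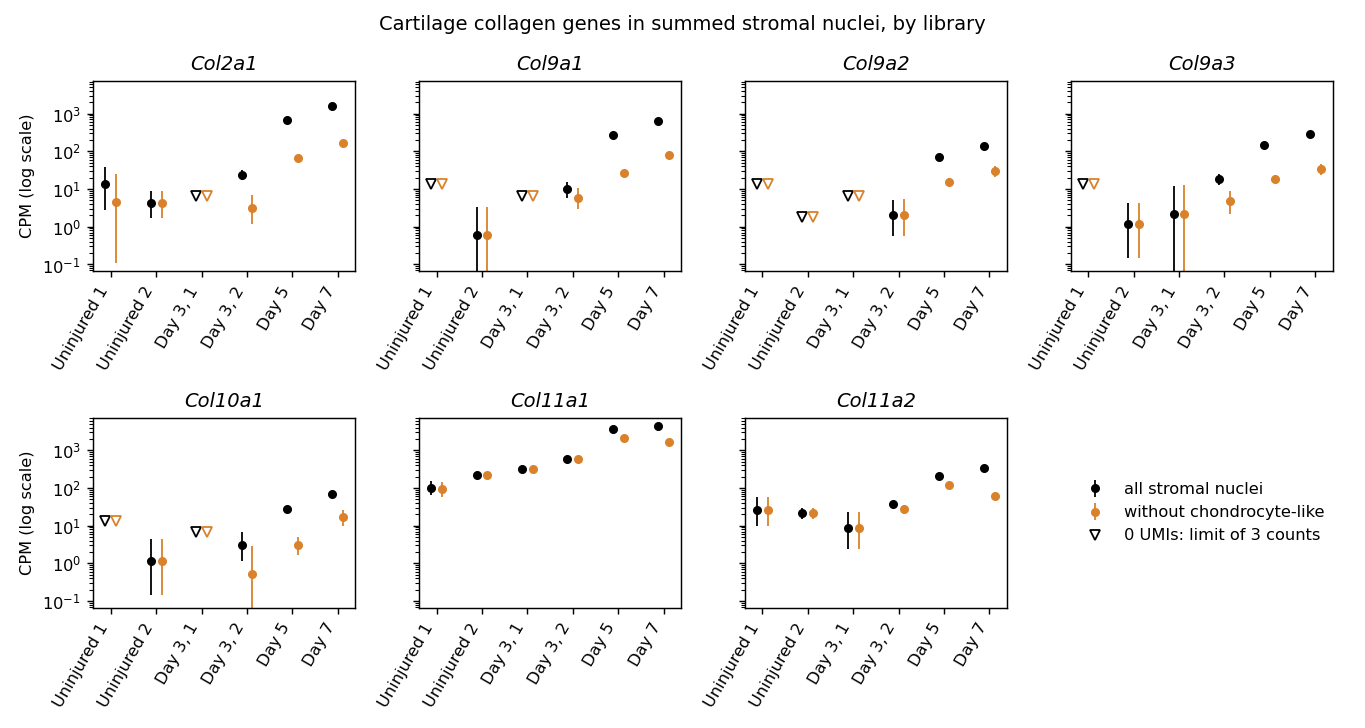
Level of each gene (CPM, log axis) in the stromal nuclei of the 6 libraries, with 95% Poisson intervals; black points are all stromal nuclei, orange points leave out chondrocyte-like nuclei, and open triangles stand for 0 UMIs at the limit of 3 counts. Each gene is highest at days 5 and 7, and Col11a1 is at 101 CPM or more in all stromal nuclei of every library.

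A trend over the days after fracture, with uninjured tissue coded as day 0, was tested in the 6 stromal sums by the quasi-likelihood test of edgeR, with p adjusted by Benjamini-Hochberg over 12918 genes. All 7 members rose, where 0.565% of all genes tested were called higher and 1.01% lower, and each was higher at days 5 and 7 than in 4 of 4 earlier libraries. The filter on low counts can be passed by a single library, so a member high only at day 5 or day 7 had to differ, and the count says little by itself. The steepest edgeR slope with Benjamini-Hochberg adjustment was that of Col9a1, at 1.73 log2 units per day (SE 0.21, adjusted p = 0.0211), and the shallowest was that of Col11a2, at 0.64 (SE 0.12, adjusted p = 0.0469). Between them lay Col9a2 at 1.65, Col2a1 at 1.36, Col9a3 at 1.28, Col10a1 at 1.06 and Col11a1 at 0.79, against a median over all genes of -0.001. The edgeR call was not stable. With all retained nuclei in place of the stromal ones, 0 of 7 members passed the Benjamini-Hochberg adjustment (lowest adjusted p = 0.0549), where 2 of 14720 genes were called higher and 2275 genes had an unadjusted p under 0.05. Without uninjured replicate 1 edgeR called 0 members (lowest adjusted p = 0.0913) and 0 of 12662 genes in either direction, with 1366 genes at an unadjusted p under 0.05. Without uninjured replicate 2 it called 0 members (lowest adjusted p = 0.0786) and 6 of 12516 genes, with 1341 at an unadjusted p under 0.05. Without an upper limit on genes per nucleus 2 members passed, where 17 of 13050 genes were higher, and without the unnamed clusters, an alternative added after the data were seen, 6 passed, where 123 of 12582 were. Without the day 5 library 3 members were among the 7 genes called higher, without the day 7 library 4 among 57, and with only the 4 libraries after fracture 1, Col10a1, among 49. All 7 members kept a positive slope and an unadjusted p under 0.05 in each of these fits. DESeq2 on all 6 libraries called all 7 members, where it called 314 of 12918 genes higher.

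With the chondrocyte-like nuclei left out, an alternative added after the data were seen, 4 of 7 members passed in edgeR, where 24 of 12455 genes were called higher. Col9a1, Col9a2, Col9a3 and Col11a1 had slopes of 1.11, 1.18, 0.80 and 0.60 log2 units per day in the quasi-likelihood test of edgeR (Benjamini-Hochberg adjusted p = 0.0304, 0.0385, 0.0345 and 0.0447). Col2a1, Col10a1 and Col11a2, with slopes of 0.93, 0.71 and 0.345, did not pass (edgeR adjusted p = 0.0652, 0.172 and 0.276), and differences between the genes were not tested. For Col2a1 the level outside these nuclei was 67.3 CPM at day 5 and 166 CPM at day 7. Endothelial and immune nuclei together held 75.1 and 113 CPM of Col2a1, and the intervals of both groups of nuclei overlapped at day 7 (143 CPM as the lower limit outside the chondrocyte-like nuclei, 163 CPM as the upper limit in endothelial and immune nuclei). For Col9a1 the levels were 26.8 and 77.4 CPM outside the chondrocyte-like nuclei and 16.6 and 64.5 CPM in endothelial and immune nuclei. Col11a1 lay further apart, at 2094 and 1634 CPM against 220.0 and 572.5 CPM. Col9a3 stood at 18.9 against 16.1 CPM at day 5, and at 33.1 against 4.03 CPM at day 7.

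Day 3 was also compared with uninjured tissue directly, the only pair of conditions with 2 libraries each. Of the 9949 genes that edgeR's quasi-likelihood test could take, 3.75% were called higher and 4.81% lower. Col11a1, Col2a1 and Col11a2 were tested and 0 of the 3 were called, with 1 at an unadjusted p under 0.05 in edgeR and 0 called by DESeq2; the other 4 genes had too few counts. For Col11a1 the edgeR log2 difference was 1.39 (SE 0.41) with a Benjamini-Hochberg adjusted p of 0.0746, higher in 2 of 2 day 3 libraries. Without 1 library the other condition alone gives the spread between replicates: the edgeR adjusted p was 0.0289 without uninjured replicate 2 and 0.00879 without day 3 replicate 1, and 0.255 both without uninjured replicate 1 and without day 3 replicate 2. Without a filter on low counts its edgeR adjusted p was 0.012. Without the unnamed clusters, an alternative added after the data were seen, the log2 difference was 1.72 (SE 0.40, edgeR adjusted p = 0.0235), where 340 of 9272 genes were called higher and 475 lower. For Col2a1 the log2 difference was 1.14 (SE 1.12) and for Col11a2 0.04 (SE 0.63). The signs of both were not stable: without uninjured replicate 2 they were -0.06 and -0.20, and without day 3 replicate 2 that of Col11a2 was -1.245.

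In the second day 3 library the early stromal signal of Col2a1 and Col9a3 lay in few nuclei. One chondrocyte-like nucleus of 14987 UMIs held 32 UMIs of Col2a1 and 25 of Col9a3, together with 17 of Matn3, a matrix protein gene of cartilage. Another held 5 UMIs of Col2a1, 7 of Col9a1 and 2 of Col9a3, and a further one held 4 of Col2a1 and 5 of Col10a1. The first of these nuclei therefore carried 32 of the 47 stromal Col2a1 UMIs of that library and 25 of the 36 of Col9a3. Over all its retained nuclei, that library held 51 UMIs of Col9a3, 52.9% in chondrocyte-like and 29.4% in immune nuclei. Of the other type IX genes, chondrocyte-like nuclei held 38.1% of the 21 Col9a1 UMIs of that library. They held 0% of the 6 UMIs of Col9a2, 3 of which lay in IIFC-like nuclei. No such nucleus was found in the first day 3 library, which held 369 retained nuclei in place of 1216.

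At days 5 and 7 most UMIs of the genes lay in the chondrocyte-like nuclei, except those of Col11a2 at day 5. Of all Col2a1 UMIs, 87.6% were found there at day 5 and 90.95% at day 7. For Col9a1 the shares were 89.4% and 90.01%, for Col9a2 77.6% and 85.1%, and for Col9a3 86.4% and 91.15%. Of Col10a1 UMIs, 87.8% were there at day 5 and 78.9% at day 7, the latter below the shares of the type II and type IX genes. The type XI genes were spread more widely at day 5: 51.96% of Col11a1 UMIs and 46.5% of Col11a2 UMIs were in chondrocyte-like nuclei, against 72.5% and 85.7% at day 7. A further 27.2% of Col11a2 UMIs at day 5 lay in osteoblast-like nuclei.

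Within the chondrocyte-like nuclei, Col2a1 stood at 3801 CPM (3678 to 3928) at day 5 and 4386 CPM (4214 to 4563) at day 7. Col9a1 stood at 1523 and 1789 CPM, Col9a2 at 353 and 367 CPM, and Col9a3 at 837 and 810.4 CPM. Col11a1 had 12510 and 9740 CPM, Col11a2 631 and 880.1 CPM, and Col10a1 160.2 and 173.5 CPM. The log2 ratio of day 7 to day 5 was 0.21 for Col2a1 (0.13 to 0.28), 0.23 for Col9a1 and 0.48 for Col11a2, and -0.36 for Col11a1 (-0.41 to -0.31). Counting intervals of Col9a2, Col9a3 and Col10a1 included 0. These ratios depend on the processing: over the alternatives, 34 values were marked as the same and 15 as moved. Without integration the summed level of the 7 genes was higher at day 5 and lower at day 7. No member differed by 2-fold, where 2.8% of 4682 genes were at least 2-fold higher and 12.6% at least 2-fold lower, and with 1 library a day these ratios have no test. Genes that are longer can collect more UMIs in nuclei, which was not tested here. Levels of different genes were therefore ranked only per kilobase of gene, and that order rests on this scaling. Ratios of UMIs between genes are set side by side only across populations.

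Per kilobase of gene span the order of levels at day 5 was led by Col2a1 at 131 CPM per kilobase and Col11a1 at 65.8 CPM per kilobase. Col9a3 came next at 34.3 CPM per kilobase, and the other 4 genes followed between 20.3 and 23.2 CPM per kilobase. Among those 4 (Col11a2, Col10a1, Col9a2 and Col9a1) each neighbour overlapped the next in its counting interval. At day 7 the CPM per kilobase were 151 for Col2a1, 51.2 for Col11a1, 33.2 for Col9a3 and 32.3 for Col11a2, and the last pair did not differ beyond counting error. Col10a1, Col9a1 and Col9a2, at 24.4, 23.8 and 23.01 CPM per kilobase, could not be ordered either. In osteoblast-like nuclei at day 5 the order turned, with Col11a2 at 45.5 and Col11a1 at 35.2 CPM per kilobase and Col2a1 at 4.04.

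**Figure D2:**
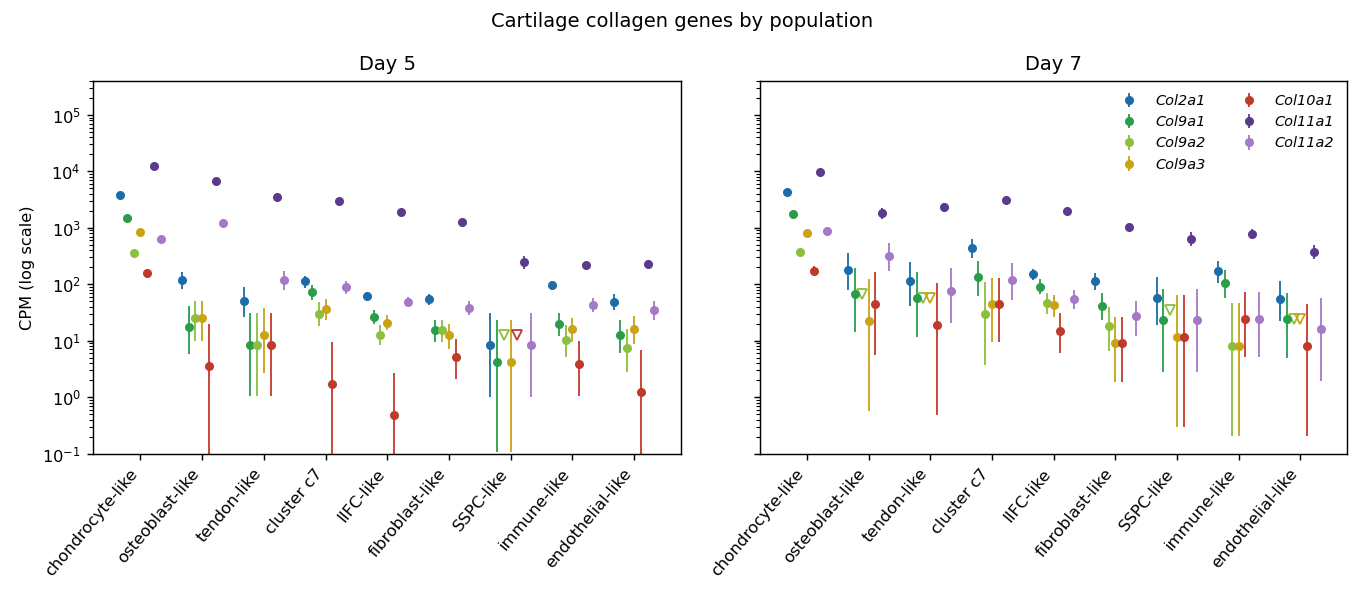
Level of each gene (CPM, log axis) in each population at day 5 (left) and day 7 (right), with 95% Poisson intervals; open triangles stand for 0 UMIs at the limit of 3 counts. Col2a1 and the type IX genes are highest in chondrocyte-like nuclei, while Col11a1 spans osteoblast-like, tendon-like and IIFC-like nuclei as well, with 6698 CPM in osteoblast-like nuclei at day 5.

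Outside the chondrocyte-like nuclei, the type II and type IX genes were lower. The highest levels of Col2a1 there were seen at day 7. In 21 osteoclast-like nuclei it stood at 502 CPM (311 to 768), with all UMIs in 14.3% of these nuclei. In unnamed clusters of 36 and 143 nuclei it stood at 435 and 370.4 CPM, at median depths of 1680.5 and only 589 UMIs. Gm42418, Lars2 and AY036118 were among the leading genes of the larger one. The same osteoclast-like nuclei held 5 UMIs of Col9a3 (119.6 CPM). IIFC-like nuclei, the injury-induced fibrogenic cells, held 61.3 CPM of Col2a1 at day 5 and 150.3 CPM at day 7, while immune nuclei held 95.5 and 172 CPM and endothelial nuclei 48.4 and 55.5 CPM. At day 7 the IIFC-like level (117 to 190 CPM) thus lay above that of endothelial nuclei (22.3 to 114 CPM) and not above that of immune nuclei (107 to 263 CPM). Between days 5 and 7, 3 of 5 members with enough UMIs were at least 2-fold higher in IIFC-like nuclei (Col2a1 by 1.299, Col9a1 by 1.78 and Col9a3 by 1.04 on the log2 scale), where 3.13% of 6546 genes were at least 2-fold higher and 11% at least 2-fold lower. Over the same days Col2a1 went from 75.1 to 113 CPM and Col9a1 from 16.6 to 64.5 CPM in endothelial and immune nuclei. Col9a3 did not keep that pattern, with 42.3 CPM in IIFC-like nuclei at day 7 and 4.03 CPM in endothelial and immune nuclei, where 1 UMI allows up to 22.5 CPM. The ratio of Col9a1 to Col2a1 UMIs was 0.401 in chondrocyte-like nuclei, 0.434 in IIFC-like nuclei and 0.208 in immune nuclei at day 5, and 0.408, 0.606 and 0.619 in the same nuclei at day 7. The ratio of Col11a1 was far less even: at day 5 it had 3.29 UMIs for each of Col2a1 in chondrocyte-like nuclei, 30.9 in IIFC-like, 57.0 in osteoblast-like and 69.7 in tendon-like nuclei, but 2.26 in immune nuclei. At day 7 the ratios were 2.22, 13.1, 10.0 and 20.2, and 4.48 in immune nuclei. On both days the ratio was thus higher in IIFC-like, osteoblast-like and tendon-like nuclei than in chondrocyte-like and immune ones, on as few as 6 UMIs of Col2a1 in tendon-like nuclei at day 7.

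Col11a1 was present in bone- and tendon-forming populations from the start. In osteoblast-like nuclei it was at 677 and 785 CPM uninjured (3 and 30 UMIs), 1829 and 4040 CPM at day 3, 6698 CPM at day 5 and 1808 CPM at day 7. Tendon-like nuclei, absent from the first uninjured library, held 862 CPM in the second, 778 and 2293 CPM at day 3, 3551 CPM at day 5 and 2305 CPM at day 7, so that the day 3 libraries lay on either side of the uninjured one. Fibroblast-like nuclei, with 62.2 and 45.6 CPM uninjured, had 162 and 200.5 CPM at day 3, 1262 CPM at day 5 and 1055 CPM at day 7. SSPC-like nuclei, the stem/progenitor cells of the periosteum, had 0 and 2.996 CPM uninjured, 0 and 16.5 CPM at day 3, 244 CPM at day 5 and 636 CPM at day 7, where endothelial nuclei held 226 and 381 CPM and immune nuclei 215.6 and 771 CPM on those days. Col11a2 in osteoblast-like nuclei stood at 1128 and 288 CPM uninjured (5 and 11 UMIs), 61.0 and 436 CPM at day 3 (1 and 37 UMIs), 1239 CPM at day 5 and 316 CPM at day 7, in no steady order over the days. One unnamed cluster of 272 nuclei, nearest to the IIFC class, held 49.7% of the Col11a1 UMIs of the second uninjured library.

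Nuclei were thinned to 500 UMIs each, so that depth would not decide how many genes are seen in 1 nucleus. At that depth 82.3% of 164 chondrocyte-like nuclei at day 5 (75.6 to 87.8) and 89.6% of 241 at day 7 (85.1 to 93.2) held UMIs of at least 2 of the 7 genes. Without thinning the shares were 94.5% and 95.85%, at median depths of 4852 and 1575 UMIs. In immune nuclei the thinned share was 2.22% at day 5 and 5.66% at day 7, and in endothelial nuclei 0.83% and 2.56%; without thinning they were 6.84% and 7.48% in immune and 8.26% and 10.3% in endothelial nuclei. The mean number of genes per nucleus was 2.90 and 3.19, and 1 nucleus in 241 held all 7 at day 7. Osteoblast-like nuclei came next at day 5 with 39.4%, and IIFC-like nuclei were at 2.34% at day 5 and 6.18% at day 7. At 1000 UMIs IIFC-like nuclei stood above immune ones, with 9.76% against 3.34% at day 5 and 19.05% against 5.26% at day 7, and without thinning they were at 42.7% and 30.3%.

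The shares of single genes followed their counts. Col11a1 was seen in 95.1% of thinned chondrocyte-like nuclei at day 5 and 91.7% at day 7, and Col2a1 in 67.7% and 79.7%. Col9a1 was seen in 42.7% and 49.4%, Col9a3 in 34.15% and 34.4%, Col11a2 in 29.3% and 39.0%, and Col9a2 in 16.5% and 17.4%. Col10a1 was seen in 4.88% and 7.47%. Col2a1 was found more often in nuclei with Col9a1, with a smaller difference at day 7. At day 5 the shares were 87.1% of 70 nuclei with Col9a1 and 53.2% of 94 nuclei without it. At day 7 they were 84.9% of 119 and 74.6% of 122. Col9a3 was found in 45.7% of the nuclei with Col9a1 and 25.5% of those without at day 5, and in 41.2% and 27.9% at day 7. Not every pair went this way. Col9a2 was found in 22.9% of the nuclei with Col9a1 and 11.7% of those without at day 5, but in 17.65% and 17.2% at day 7. Col9a3 was found in 37.5% of 8 nuclei with Col10a1 and 34.0% of those without at day 5. At day 7 it was found in 16.7% of 18 and 35.9%. Nuclei of 1 library share their source, and these shares carry no test.

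**Figure D3:**
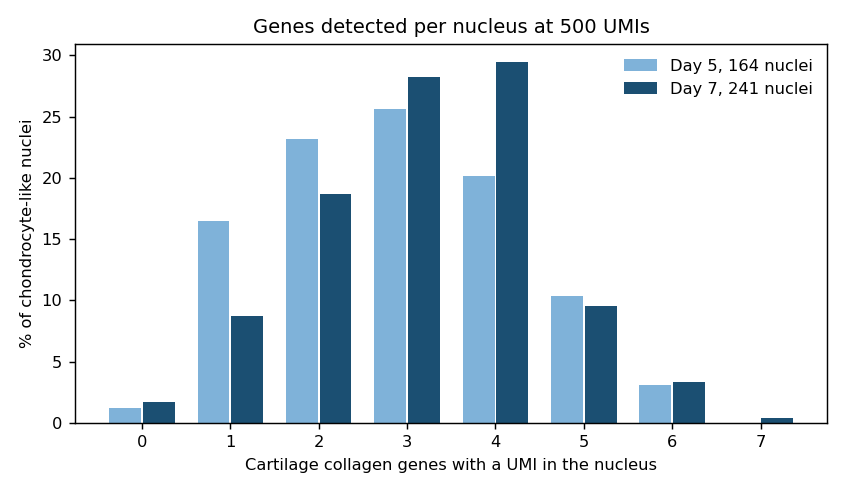
Share of chondrocyte-like nuclei (percent, vertical axis) by the number of the 7 genes with a UMI after thinning to 500 UMIs, at day 5 (light) and day 7 (dark). The most frequent number was 3 genes at day 5 (25.6% of nuclei, with 23.2% holding 2 and 20.1% holding 4) and 4 genes at day 7 (29.5%, with 28.2% holding 3).

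The order of onset was read along diffusion pseudotime, an ordering of nuclei by likeness of expression, computed in each library over IIFC-like and chondrocyte-like nuclei with the 7 genes left out. The nuclei were put in 6 bins of equal size, and onset was the bin in which a gene first reached 50% of its highest CPM. At day 7 onset was bin 4 for Col2a1, Col9a1, Col9a2, Col9a3, Col11a1 and Col11a2, and bin 6 for Col10a1, whose level was 492 CPM in bin 6 and at most 44.97 CPM before. Bin 4 was the first made up of chondrocyte-like nuclei entirely (45.7% in bin 3 and 0% in bins 1 and 2), so that the onset shared by 6 genes falls where the population changes. At day 5 all 7 genes had their onset in bin 6, the only bin made up of chondrocyte-like nuclei entirely, so no order could be read there.

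Among the chondrocyte-like nuclei alone, split into 6 bins after the data were seen, Col10a1 came last on both days. At day 5 Col9a3 and Col11a1 reached 50% of their highest level in bin 3, Col2a1, Col9a1, Col9a2 and Col11a2 in bin 4, and Col10a1 in bin 6. At day 7 Col11a1 was there in bin 1, the other 5 genes in bin 2, and Col10a1 in bin 6 again, but bin 1 held 53.2% of the highest level for Col11a1 and 48.0% for Col9a1, so that their order there depends on the threshold. At day 5 the place of Col9a1 also depends on the threshold, with 1303 CPM in bin 3 and 2684 CPM in bin 5, its highest. Col10a1 was at 742 CPM in the last bin at day 5, after at most 43.6 CPM, and at 669 CPM at day 7, after 234 CPM in bin 5. The type IX and type XI genes were past their peak by then. At day 7 the last bin held 30.9% of the highest level of Col9a1, 52.1% of that of Col9a2 and 36.4% of that of Col9a3. It held 56.6% of that of Col11a1 and 71.2% of that of Col11a2. Col2a1 was kept at 96.7% of its highest level in the last bin at day 7 and was highest in it at day 5. Depth, with medians from 2566.5 to 5834 UMIs over the bins at day 5, can enter such an ordering, and its part was not tested.

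**Figure D4:**
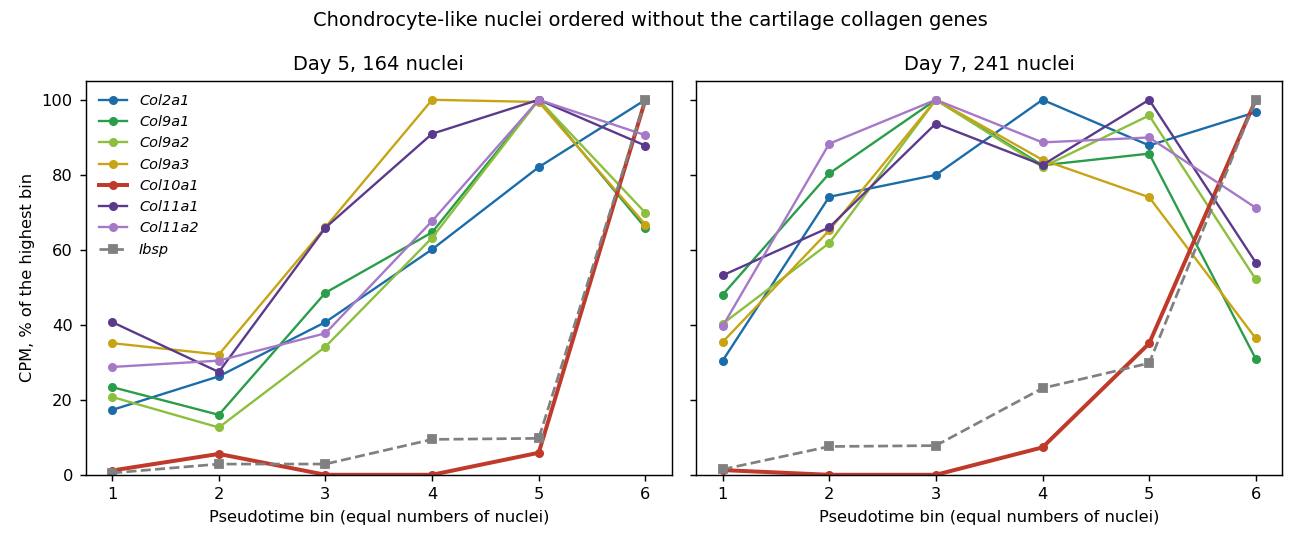
Level of each gene as percent of its highest bin (vertical axis) in 6 pseudotime bins of chondrocyte-like nuclei (horizontal axis) at day 5 (left, 164 nuclei) and day 7 (right, 241 nuclei); the dashed line is Ibsp. Col10a1 and Ibsp are highest in bin 6 on both days, where Col9a1 is back at 65.9% and 30.9% of its highest level.

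Col10a1 was found in few of the chondrocyte-like nuclei at these depths. It had a UMI in 18 nuclei at day 5 and 35 at day 7, and 5 nuclei held 64.2% and 44.3% of its UMIs. For the other 6 genes the leading 5 nuclei held between 8.33% and 20.5% of the UMIs. The nuclei with Col10a1 were deeper than those without (median 8356 against 4223 UMIs at day 5), and depth alone makes a UMI more likely to be seen. Beside the Col10a1 nuclei, 3 genes chosen after their values were seen are given. Ibsp, a bone matrix protein gene, stood at 1590 CPM with Col10a1 and 177 CPM without at day 5, and at 477 and 101 CPM at day 7. Runx2, a regulator of osteoblasts and hypertrophic chondrocytes, stood at 3532 against 1864 CPM and at 5383 against 2347 CPM. Spp1, which encodes osteopontin, stood at 888 against 43.6 CPM at day 5, while at day 7 it had 1 UMI with Col10a1 and 16 without (9.54 and 35.2 CPM), too few to read. Along the pseudotime bins of chondrocyte-like nuclei Spp1 was highest in bin 6 on both days, at 790.0 and 126.1 CPM. The day 7 value rests on some of the same few UMIs. Other genes of hypertrophic and terminal cartilage did not all go the same way. Alpl, Panx3 and Phex were higher with Col10a1 on both days, Alpl at 518 against 215 CPM and at 735 against 324 CPM. Enpp1 was not higher, at 129 against 165 CPM and at 57.3 against 152 CPM. Nor was Ank, at 123 against 155 CPM and at 134 against 205 CPM. Vegfa and Sp7 were near level at day 5 and higher at day 7. Mmp13, Slc37a2 and Bglap had too few UMIs to read. Col9a1 was not higher in the nuclei with Col10a1, at 1461 against 1536 CPM and at 1422 against 1874 CPM.

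Other genes of cartilage were followed in the same stromal trend by the quasi-likelihood test of edgeR with p adjusted by Benjamini-Hochberg, in lists chosen for the tissue. Over all genes 0.565% rose and 1.01% fell, but as for the collagens, a gene high only at days 5 and 7 had to differ, and these counts say little by themselves. Of the genes called, Matn3, Epyc, Ucma, Frzb, Cnmd, Foxa3, Ihh and Panx3 had too few counts in the uninjured and day 3 libraries to be tested there. Of 14 tested genes of other cartilage matrix, 6 rose, with a median slope of 0.91. Matn3 (1.52) and Epyc (1.51, adjusted p = 0.0466) had the steepest slopes, Ucma (0.92) and Frzb (0.91) the shallowest of those called, and Acan rose by 1.07 per day (adjusted p = 0.032). Hapln1, the link protein gene, had a slope of 0.92 and did not pass (edgeR adjusted p = 0.0733). Of 12 transcription factor genes, 3 rose (Foxa3 1.24, Sox9 0.465, Trps1 0.46), and Sox6 had 0.59 without passing. In signalling, Ihh (1.58), Wwp2 (0.62) and Pth1r (0.46) rose and Gdf10 fell by 0.92, of 9 tested.

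Of 12 genes of hypertrophic and terminal cartilage, Panx3 (1.21) and Alpl (0.43) rose in edgeR's test, and Vegfa (0.03) did not pass. DESeq2 called 4 of the 12 higher. Of 20 genes for processing of collagen chains 0 were called in the edgeR trend, with 6 at an unadjusted p under 0.05, and DESeq2 called 1 higher and 1 lower. The slopes of those with the most UMIs in chondrocyte-like nuclei were 0.38 for Plod2 (edgeR adjusted p = 0.0548) and 0.29 for Adamts3. At day 3 against uninjured tissue 4 of 19 tested genes of that list rose by edgeR, where 3.75% of all genes did, and the genes named for day 3 here and below were chosen after their values were seen: P4ha3 by 2.68, Loxl3 by 2.15, Lox by 1.79 and Plod2 by 1.69. Among 10 partner collagens Col27a1, a fibrillar collagen also known from cartilage, rose in the trend (0.65) and at day 3 (2.29), and Col12a1 did not pass (0.35). Among 7 receptors Itga10, the subunit of an integrin that binds collagen, rose (0.46), and Ddr2 did not pass (-0.18). At day 3, 2 of the 7 receptors fell in edgeR (Itga1 at -1.504 and Itga2 at -3.29 log2 units) and 0 rose, where 4.81% of all genes fell. DESeq2 called 1 receptor lower at day 3, and 3 partner collagens higher where edgeR called 1. Of the other lists, Ibsp (2.18) and Wwp2 (1.44) rose and Gdf10 (-4.31) fell at day 3. In day 3 sums without the chondrocyte-like nuclei, edgeR called 0 of 7 signalling genes higher, so Wwp2 was not called, and 2 lower. Of 10 hypertrophic genes it called 2 higher there. With the chondrocyte-like nuclei left out, edgeR called 2 of 11 tested genes of other cartilage matrix and 1 of 8 in signalling in the trend. In the same sums it called 0 of 11 transcription factor genes and 0 of 12 hypertrophic genes, each with 4 at an unadjusted p under 0.05, and DESeq2 was not run on them. Collagen processing, partner collagens and receptors had 0 calls too, with 5, 4 and 3 genes at an unadjusted p under 0.05 in edgeR. With all stromal nuclei the median slopes of the hypertrophic, processing, partner and receptor lists lay between -0.02 and 0.20.

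The genes most alike were found by Pearson's r of log2 levels over 52 sums of nuclei (1 population in 1 library, at least 20 nuclei each). The sums share libraries, so r is a description. For Col2a1 these were Col9a1 (r = 0.949), Hapln1 (0.904) and Acan (0.898). Col9a3 was most like Matn3 (0.928), as was Col9a2 (0.877), and Col9a1 followed Col2a1 with Matn3 at 0.907. Col10a1 lay nearest to Col2a1 (0.871). For Col11a1 they were Edil3 (0.895), Matn4 (0.864) and, as for Col2a1, Acan (0.858), and for Col11a2 Panx3 (0.833), Pth1r (0.823) and Slc8a3 (0.801). Between members r ranged from 0.63 for Col10a1 with Col11a1 to 0.949 for Col2a1 with Col9a1, over 52 sums.

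The genes lie apart in the genome (GRCm38, GENCODE vM21), each on its own chromosome, and differ much in size. Col11a1, on chromosome 3 from 114030540 to 114220718, spans 190.2 kb with 67 exons in its longest model, and Col10a1, on chromosome 10 from 34389981 to 34397085, spans 7.1 kb with 3 exons. Col2a1 (chromosome 15, 97975602 to 98004695, minus strand) spans 29.1 kb with 54 exons, and Col11a2 (chromosome 17, 34039437 to 34066685) 27.2 kb with 66. The type IX genes are Col9a1 on chromosome 1 (24177610 to 24252684), Col9a2 on chromosome 4 (121039385 to 121055322) and Col9a3 on chromosome 2 (180597790 to 180622189). Col10a1 lies entirely inside Nt5dc1 on the opposite strand, and the end of Col9a3 overlaps Tcfl5 on the opposite strand by 234 bases. Nt5dc1 was level across populations at day 5, with 128 CPM in chondrocyte-like, 113 CPM in IIFC-like and 122 CPM in immune nuclei. Tcfl5 was not level, with 23.3 CPM in chondrocyte-like and 21.4 CPM in IIFC-like nuclei against 0.946 CPM in immune and 1.24 CPM in endothelial nuclei (1 UMI each), and its part in the counts of Col9a3 was not tested.

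The promoter table of RefSeq (GRCm38.p6) held 6 promoters for 5 of the 7 genes, and Col2a1 and Col9a3 have none in it. Each runs from 250 bases before the start given in that table to 50 after, and positions count from that start, which for Col9a2, Col11a2 and the second promoter of Col9a1 is not the start of the GENCODE gene above. They were searched on both strands for the SOX motifs ACAAAG and ACAATG, for TATAAA and for the RUNX motif TGTGGT, which occur in 18.7%, 12.6%, 13.6% and 16.8% of all 32851 promoters. A match is a description and not a sign of binding. Matches were found in Col10a1 (ACAAAG at -185 and TATAAA at -32) and in Col11a2 (TATAAA at -143), and in none of the promoters of Col9a1, Col9a2 and Col11a1. Both are shown, since they are the members with a match, the first at chr10:34389731-34390030 and the second at chr17:34038888-34039187, both on the plus strand, with capitals for the matches.
Col10a1: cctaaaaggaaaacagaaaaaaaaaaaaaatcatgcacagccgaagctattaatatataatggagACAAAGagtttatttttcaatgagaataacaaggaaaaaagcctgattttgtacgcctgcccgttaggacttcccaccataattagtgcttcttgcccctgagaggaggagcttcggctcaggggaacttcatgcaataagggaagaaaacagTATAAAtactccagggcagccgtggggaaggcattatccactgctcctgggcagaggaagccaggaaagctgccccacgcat
Col11a2: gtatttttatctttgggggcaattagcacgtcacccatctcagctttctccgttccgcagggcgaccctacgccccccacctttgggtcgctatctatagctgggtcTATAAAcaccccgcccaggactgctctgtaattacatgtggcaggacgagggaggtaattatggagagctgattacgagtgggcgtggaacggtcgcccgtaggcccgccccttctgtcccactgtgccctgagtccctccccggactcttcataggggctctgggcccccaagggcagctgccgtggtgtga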

How the data were processed

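The 6 libraries of sorted nuclei were used. According to the deposited files, the authors made them with Cell Ranger (6.0.0 for uninjured replicate 1 and days 5 and 7, 7.1.0 for the others, per the file headers), on mm10 with intronic and exonic reads, and the deposited values are raw counts of UMIs; the strand rule of the counting is not given. The 7 members and the 7 gene lists were chosen with earlier results of these data known. Barcodes were kept where 200 to 5000 genes were detected and where mitochondrial UMIs stayed below 2% and ribosomal ones below 1.5%, and myogenic clusters were removed. Libraries were integrated with Seurat 5.3.0 in R 4.3.3 (20 dimensions, resolution 1.3, members, markers and list genes left out as features), giving 26 clusters, named where at least 3 markers of a class were detected; 3 stayed unnamed and were summed with the stromal nuclei by their nearest class, although the plan listed the named clusters only. A rule that left clusters unnamed for lack of leading markers was added after the data were seen. Summed stromal UMIs were tested with edgeR 4.0.16 (filterByExpr, TMM, quasi-likelihood, 2-sided, Benjamini-Hochberg, adjusted p under 0.05). Pseudotime used scanpy 1.11.5 (10 components). Shares were computed after thinning to 500 UMIs. Named genes were, in each list, those with the 2 highest and 2 lowest slopes among genes called and the 2 most abundant in chondrocyte-like nuclei. Alternatives were DESeq2 1.42.0, no filter on counts, all nuclei, doublets removed, no integration, resolution 0.8, wider limits, members kept as features, each library left out, other codings of time, thinning to 1000 UMIs, 4 bins and 15 components. Doublets were the 6% of barcodes with the highest Scrublet scores, since its own threshold marked almost none. The edgeR scripts were tested on simulated data.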

Additional observations from a re-analysis of the deposited data

Results flagged for a closer look

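The barcodes outside the limits and the myogenic nuclei entered the comparisons only in some alternatives. Several of the genes stood higher in them after fracture than in those of the pooled uninjured libraries, and the cause was not tested. The barcodes outside the limits had failed different limits. In the second uninjured library 247 of 264 failed on mitochondrial UMIs. At day 5, 99 of 113 failed on ribosomal UMIs alone, and 13 with too many genes held 378113 of the 591848 UMIs. Among barcodes outside the limits, Col11a1 stood at 235.8 CPM in the second day 3 library and 3403 CPM at day 5, against 135.5 CPM uninjured. At day 5 the same 113 barcodes held 459.6 CPM of Col2a1 (18.82 uninjured), 427.5 CPM of Col9a1 (11.29), 72.65 CPM of Col9a2 (5.647), 138.5 CPM of Col9a3 (0, with 0 UMIs) and 234.9 CPM of Col11a2 (24.47). At day 7 Col2a1 stood at 72.88 CPM among 2097 such barcodes.

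Among myogenic nuclei, Col11a1 was at 19.52 CPM in the second day 3 library, 439.6 CPM at day 5 and 392.0 CPM at day 7, against 7.423 CPM uninjured. Col2a1 was at 121.3 CPM at day 5 and 121.0 CPM at day 7, against 0.3711 CPM. Col9a1 was at 42.07 and 56.24 CPM, against 12.62 CPM, and Col11a2 at 44.17 and 32.38 CPM, against 3.711 CPM. Col9a3 was at 18.23 CPM at day 5, against 1.485 CPM. Endothelial and immune nuclei of the same libraries held 75.1 CPM of Col2a1 at day 5 and 113 CPM at day 7.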

How the results depend on the processing

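In the trend every slope of the 7 genes was positive under every alternative; 74 values kept their call and 45 lost it. The number of members called was 7 with DESeq2, without a filter, without integration and with wider limits, 6 with doublets removed, with log2(day + 1) and without unnamed clusters (added after the data were seen), but 0 with all retained nuclei, 2 without an upper limit on genes, 4 without chondrocyte-like nuclei (added after the data were seen) and 1 with only the 4 libraries after fracture; leaving out 1 library gave 0 to 7. Genes higher in the trend numbered 314 with DESeq2, 336 without a filter, 2 with all nuclei, 17 without an upper limit, 24 without chondrocyte-like nuclei, 123 without unnamed clusters and 174 with log2(day + 1), and 0 to 80 without 1 library. Genes lower numbered 424, 546, 7, 27, 63, 173 and 396 in the same order, 11 with the 4 libraries after fracture, and 0 to 166 without 1 library. Causes were not tested.

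At day 3 against uninjured tissue, genes higher numbered 625 without a filter and 211 to 496 without 1 library, and genes lower 781 without a filter, 720 with all nuclei and 261 to 586 without 1 library; 1 member was called without a filter, 1 without unnamed clusters and 0 to 1 without 1 library. The log2 difference of Col2a1 turned to -0.24 without an upper limit and, without 1 library, ranged from -0.064 (without uninjured replicate 2) to 1.777 (without day 3 replicate 1) over 3 fits; without day 3 replicate 2 the remaining day 3 library held 0 UMIs of Col2a1, and the gene had too few counts to be tested. That of Col11a2 turned to -0.087 with DESeq2, -0.065 with doublets removed, -0.68 without an upper limit, -0.32 without chondrocyte-like nuclei, -0.483 without unnamed clusters, and ranged from -1.245 (without day 3 replicate 2) to 0.527 (without day 3 replicate 1) without 1 library.

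The summed level of the 7 genes in chondrocyte-like nuclei, 19810 CPM at day 5 and 18150 CPM at day 7, was 23450 CPM at day 5 without integration, 20330 CPM with members and markers kept, 23820 CPM with doublets removed, 18500 CPM with wider limits, 20630 CPM without an upper limit and 20210 CPM with myogenic clusters kept, and at day 7 17390 CPM without integration and 18620 CPM with doublets removed. The share of nuclei with at least 2 genes at day 5 was 88.0% at 1000 UMIs, 94.51% without thinning, 92.13% with doublets removed and 91.27% without integration, and at day 7 95.08% at 1000 UMIs and 95.85% without thinning. The onset of Col10a1 followed the median of the others at day 5 by 2 bins among chondrocyte-like nuclei alone and by 0 bins in every other setting, and at day 7 by 4 bins among chondrocyte-like nuclei alone, 1 bin with 4 bins and 2 bins in the others. No paired analysis was possible because the labels pair no libraries. Days 5 and 7 have 1 library each, which limits statements on either day alone, or on day 7 against day 5, to counting error. The trend over days takes its spread from all 6 libraries.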

Other observations

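Schwann-like nuclei of the first uninjured library held 36 of its 59 Col11a1 UMIs, a level of 851 CPM in 24 nuclei. All 36 lay in 20.8% of these nuclei. The Schwann-like nuclei of the second uninjured library stood at 76.9 CPM in 39 nuclei, with a UMI in 17.95% of them.

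Myogenic nuclei of the second uninjured library held 32 UMIs of Col9a1 (15.1 CPM in 287 nuclei) but 1 UMI of Col2a1, while chondrocyte-like nuclei at day 5 had 0.401 UMIs of Col9a1 for each UMI of Col2a1.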
